A study of Rattus norvegicus with 4 samples.

Results

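Gene expression in the CA3 area of the rat hippocampus was compared between 2 arrays, that of animals injected with kainic acid (KA) together with the peptide NAP and that of animals injected with PBS, the vehicle. These are 2 of the 4 arrays of the series. The other 2 hold RNA after KA alone and after NAP alone. All animals were Sprague-Dawley rats, the agents were injected into the hippocampus, and CA3 was removed 24 h later. The series' design text names CA3, while the sample protocol speaks of hippocampi. Age, sex and KA dose are not in the labels, nor is the number of animals behind each array. The genes compared were the 9489 of 14217 on the array with a 4-array mean intensity above 62.75, which is the median of the non-control probe sets. For a gene with several probe sets the brightest was used. Differences are of log2(intensity + 10), so a difference of 1 is a 2-fold difference on that scale, and those of dim genes are understated. With 1 array a side no replicate error can be given and nothing was tested, and 2-fold serves as a fixed rule of size rather than a call of significance.

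KA activates kainate-type glutamate receptors, which are dense on CA3 pyramidal neurons, and overexcites these cells until many of them die. The injury draws in microglia and blood-borne phagocytes and makes astrocytes reactive. NAP is a peptide taken from ADNP, the activity-dependent neuroprotective protein, and is known for protecting neurons in culture and for acting on microtubules and their end-binding proteins. The comparison with vehicle asks what remained different from vehicle-injected animals when both agents were given.

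The arrays were at one scale, with median intensities of 335 on PBS, 350 on KA, 359 on KA+NAP and 344 on NAP over the genes compared. Beta-actin control probe sets had a 3′ to 5′ ratio of 15.5 on KA+NAP and 14.1 on PBS, against 11.4 on KA and 7.92 on NAP. For hexokinase the ratio was lowest on KA+NAP, at 5.5, and highest on PBS, at 8.0, and for GAPDH it was between 1.31 and 1.56. CA3 pyramidal neuron markers were well expressed on the PBS array, among them Neurod6 at 3379, Bok at 1084 and Grik4 at 407. Markers of neighbouring fields were present too, such as the CA1 gene Mpped1 at 1448 and the dentate granule cell gene Prox1 at 932, whereas the CA3 marker Iyd was at 2 on PBS and at no more than 12 on any array. The PBS array stood apart from NAP alone in haemoglobin. Hbb, the beta-globin gene, was at 5 on PBS, 1430 on NAP, 186 on KA and 1549 on KA+NAP, and Hba-a3, an alpha-globin gene, was at 19, 125, 37 and 179 in the same order. Both are red blood cell transcripts whose probe sets can bind related globins. Part of the distance from PBS was also present with NAP alone, so NAP minus PBS is given for many of the genes below. Where it is not printed, the distance from PBS may still be shared with NAP.

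Relative to PBS, 704 genes (7.42%) were at least 2-fold higher on the KA+NAP array and 202 (2.13%) lay that far below. The higher side reached further. At least 4-fold differences were found for 166 higher and 12 lower genes, and at least 8-fold differences for 47 higher genes and no lower gene. The highest difference was 6.73 and the lowest was −2.56. The genes at least 2-fold higher thus made up 77.7% of all those past 2-fold, a share that was 67.0% when each array was centred on its own median. For scale, NAP alone differed from PBS by 2-fold in 100 higher genes (1.05%) and 23 lower genes (0.242%). When the NAP array took the place of PBS, KA+NAP was at least 2-fold above it for 538 genes (5.67%) and below it for 229 (2.41%). The median difference over all genes was 0.03. Dim genes differed more often. When the genes were split into 4 equal bins by mean intensity, 12.1% of the dimmest bin and 3.33% of the brightest were at least 2-fold higher. Since all 4 arrays enter the filter, a gene dim without KA could enter through its KA arrays, and such a gene had to differ. The same held for a gene dim on every array but KA+NAP. Such genes are pointed out below only in part. Just inside the filter, at a mean of 63, were Dscc1 (1.40), Trip13 (1.28), Pskh1 (0.73), Tmlhe (−0.06) and Adgra3 (−0.26). Just outside, at 62.75, were Eef1akmt4 (2.06), Zswim7 (1.04), Epcip (0.20), Sncaip (0.11) and Trim62 (−0.12).

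**Figure D1:**
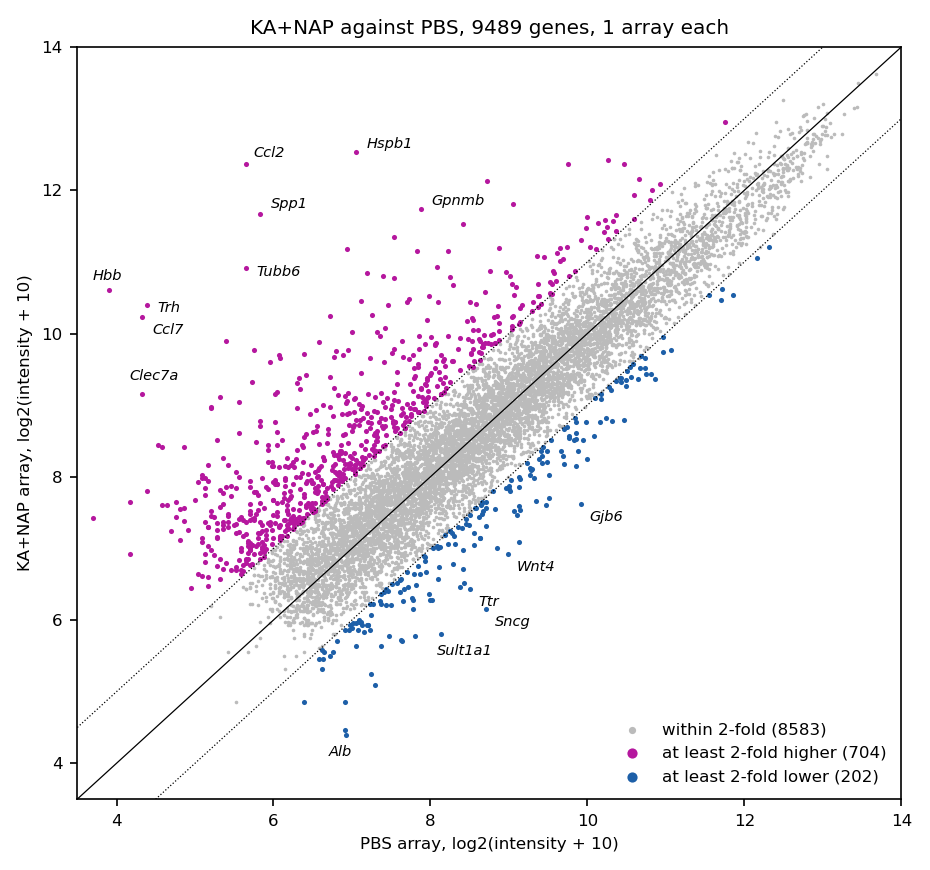
Intensity of 9489 genes on the PBS array (horizontal) and the KA+NAP array (vertical), both as log2(intensity + 10). The solid line marks equality and the dotted lines 2-fold. The 704 higher genes reach farther from the line than the 202 lower genes, up to a difference of 6.73 for Ccl2.

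The highest difference belonged to a monocyte attractant. Ccl2, the chemokine that recruits monocytes, was at 40 on PBS, 181 on NAP, 5786 on KA and 5291 on KA+NAP, a KA+NAP minus PBS difference of 6.73. Its relative Ccl7, which acts on the same receptor, was at 10, 21, 1239 and 1189 in that order of arrays, a difference of 5.91. Both genes stood high on the 2 arrays with KA and low on the 2 without. Trh, the precursor of thyrotropin-releasing hormone and a peptide gene driven by seizures, was at 11 on PBS, 29 on NAP, 1242 on KA and 1335 on KA+NAP, a difference of 6.0. Hspb1, a small heat shock protein of reactive astrocytes, was at 123, 550, 5423 and 5894, a difference of 5.47. Tubb6, a beta tubulin that is scarce in resting brain, was at 40, 128, 1616 and 1923, a difference of 5.27. In these 3 genes the KA and KA+NAP arrays lay close together and far above both others.

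Other genes among the highest stood higher with both agents than with KA alone. Spp1 (osteopontin), a secreted matrix protein of activated phagocytes, was at 47 on PBS, 153 on NAP, 1087 on KA and 3248 on KA+NAP, a difference of 5.84. Clec7a, the beta-glucan receptor of phagocytes, was at 10, 92, 122 and 559 in that order, a difference of 4.83. Cd300c2, a myeloid surface receptor gene, was at 32, 135, 242 and 943, a difference of 4.5. In each of the 3 the NAP array already lay above PBS, and the KA+NAP array was the highest of the 4. The galectin gene Lgals3 (4.23), the lysosomal glycoprotein gene Gpnmb (3.86), the neutrophil calgranulin S100a9 (3.92), the protease inhibitor Slpi (3.82), Emp3 (3.75) and Fcnb (3.73), a ficolin gene that was at 77 or less on the other arrays, had the same order of arrays, PBS, NAP, KA and KA+NAP from low to high. So did Timp1, an inhibitor of metalloproteinases (3.81), the interferon-induced membrane protein gene Ifitm1 (3.79) and the actin-binding protein gene Tagln (3.66). Cybb, a subunit of the NADPH oxidase, was at 27, 140, 113 and 492, a difference of 3.76, with KA and NAP in the other order. The hyaluronan receptor Cd44 was at 44, 96, 700 and 860, a difference of 4.01, and its 2 probe sets gave 3.19 and 4.01. NAP minus PBS was 2.20 for Gpnmb, 2.06 for Ifitm1, 2.02 for Cybb and 1.93 for Emp3. Clec7a, S100a9, Slpi and Fcnb passed the filter only through their KA+NAP values and so had to differ. Hbb, second among all genes at 6.70, differed by 6.58 already in NAP minus PBS and by 0.11 in KA+NAP minus NAP.

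The lowest differences were smaller in size than the highest. Sncg, gamma-synuclein of axons, was at 409 on PBS, 363 on NAP, 67 on KA and 61 on KA+NAP, a difference of −2.56. Gjb6, the astrocyte gap junction protein connexin 30, was at 956, 1007, 131 and 186, a difference of −2.30. Sult1a1, a sulfotransferase, was at 272, 216, 41 and 46, a difference of −2.33. In all 3 the arrays without KA lay together and above the arrays with KA. The same order held for Wnt4, a secreted signalling protein (497, 519, 172 and 111, a difference of −2.07), for Rasd2, a small GTPase (−2.05), and for the epoxide hydrolase Ephx2 (−1.94). It held as well for the acetyltransferase-family gene Nat8f5 (−2.45), Selenbp1 (−2.05), B3gat2 (−1.90), Dipk1c (−1.90), the PAR bZIP transcription factor Hlf (−1.87), the tight junction gene Cldn10 (−1.83), Sec14l2 (−1.80) and Kctd4 (−1.74). Alb, the plasma protein albumin, was at 111, 168, 28 and 11, a difference of −2.53, with the KA+NAP value near the pseudocount. Frem3 (−2.21), the cadherin gene Cdh12 (−2.03), the neuropeptide Y receptor gene Npy5r (−1.92) and Exph5 (−2.0) completed the lowest genes apart from Ttr. Exph5 was also at −1.02 in NAP minus PBS. Ttr, the thyroid hormone carrier made by choroid plexus, had its own pattern, at 354 on PBS, 359 on NAP, 453 on KA and 76 on KA+NAP, a difference of −2.08.

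**Figure D2:**
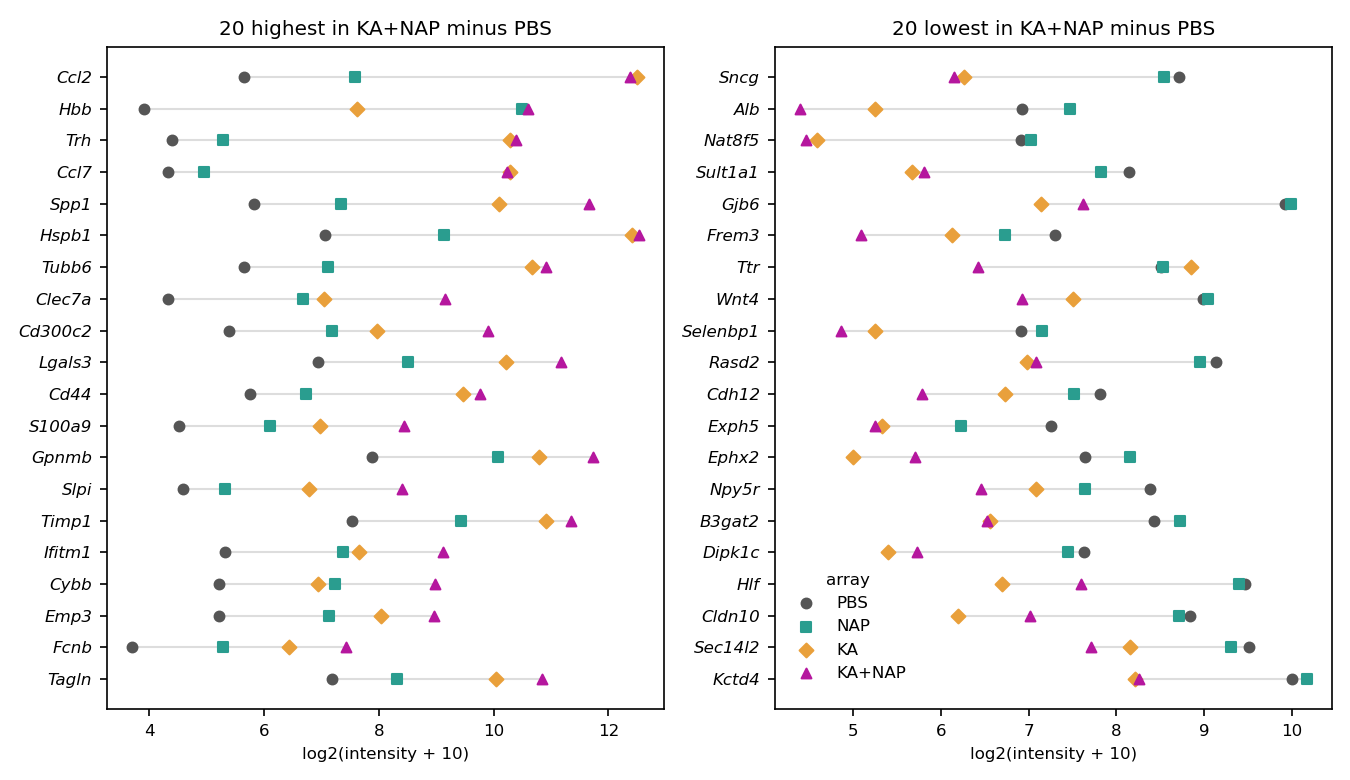
The 20 genes highest and the 20 lowest in KA+NAP minus PBS, each with its log2(intensity + 10) on the 4 arrays, 1 point an array. Among the highest genes PBS is the lowest array in every row, and among the lowest genes the 2 arrays without KA lie to the right except where Ttr has its highest point on the KA array.

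Where a gene had several probe sets past the filter, they mostly lay on the same side. There were 2080 such genes, of which 89 were at least 2-fold higher in their brightest probe set. In 83 of these all probe sets lay above 0, and in 53 all reached 2-fold. Of the 39 lower ones, all probe sets lay below 0 in 34 and all reached 2-fold in 17. Lox, a collagen cross-linking enzyme, had probe sets at 3.53 and 3.56, Hlf ranged from −1.87 to −1.34 over 3, and Kctd4 from −1.77 to −1.74 over 2. Some genes named below had probe sets that disagreed. Dusp6 ranged from −0.23 to 1.31 over 3 and Fam135a from −1.22 to 0.23 over 2. Abca1 ranged from 0.45 to 2.22 over 3, Cxcl12 from −1.32 to −0.10 over 2, and Tubb4a from −0.87 to 0.09 over 3. In P2ry12 (−0.96), Slc4a4 (−0.82), Gabrd (−0.76), Syn2 (−0.71) and Irf9 (0.76) the probe set nearest PBS, in brackets, fell short of the 2-fold that the brightest reached.

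KA minus NAP, the difference between the 2 remaining arrays, shares no array with KA+NAP minus PBS, and so it can be set against it without common array noise. Of the 704 genes higher in KA+NAP minus PBS, 626 (88.9%) lay above 0 in KA minus NAP, against 50.5% of all genes, and 211 (29.97%) were at least 2-fold higher there, against 303 genes (3.19%) of all. Those 211 were 69.6% of the 303. Of the 202 lower genes, 190 (94.1%) lay below 0, against 49.0% of all genes, and 90 (44.6%) were at least 2-fold lower, against 241 genes (2.54%) of all. Those 90 were 37.3% of the 241. The median difference of the 704 genes was 1.44 in KA+NAP minus PBS and 0.72 in KA minus NAP, and that of the 202 genes was −1.18 and −0.90. The genes were chosen on the first difference, which favours larger values there. KA minus NAP also subtracts the NAP array, so any rise present with NAP alone lowers it. Across the 9489 genes the differences correlated at Pearson r = 0.65 and Spearman rho = 0.61, a description only, since genes are not independent replicates and share probe chemistry and array scale. In 8 genes, all higher in KA+NAP minus PBS, the differences were at least 2-fold in opposite directions. No gene had the reverse.

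**Figure D3:**
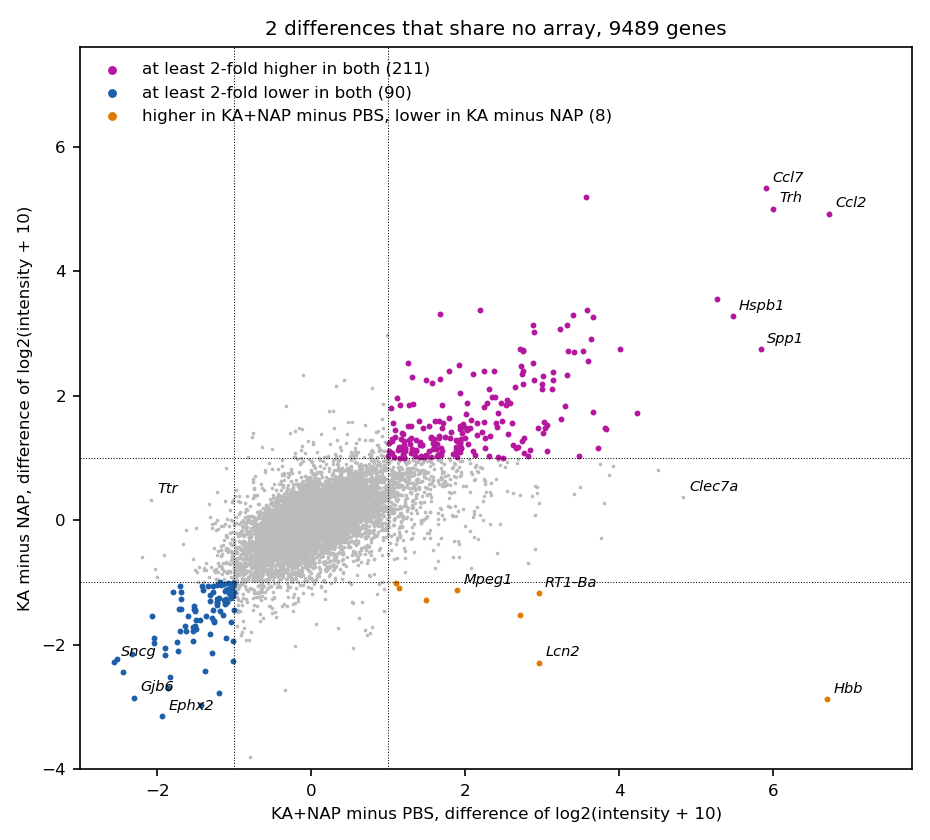
KA+NAP minus PBS (horizontal) and KA minus NAP (vertical), both as differences of log2(intensity + 10), for 9489 genes. Dotted lines mark 2-fold. The 211 genes higher and the 90 lower in both lie along the diagonal, and the 8 opposed genes, led by Hbb and Lcn2, lie at the lower right.

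Groups of genes were described with lists of pathway genes and cell type markers, some of which share members. A list's median and counts cover the members past the filter. They are read beside 7.42% higher, 2.13% lower and a median of 0.03 over all genes, and they are a description of these arrays. In tissue RNA, fewer cells of a type and less RNA per cell cannot be told apart.

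**Figure D4:**
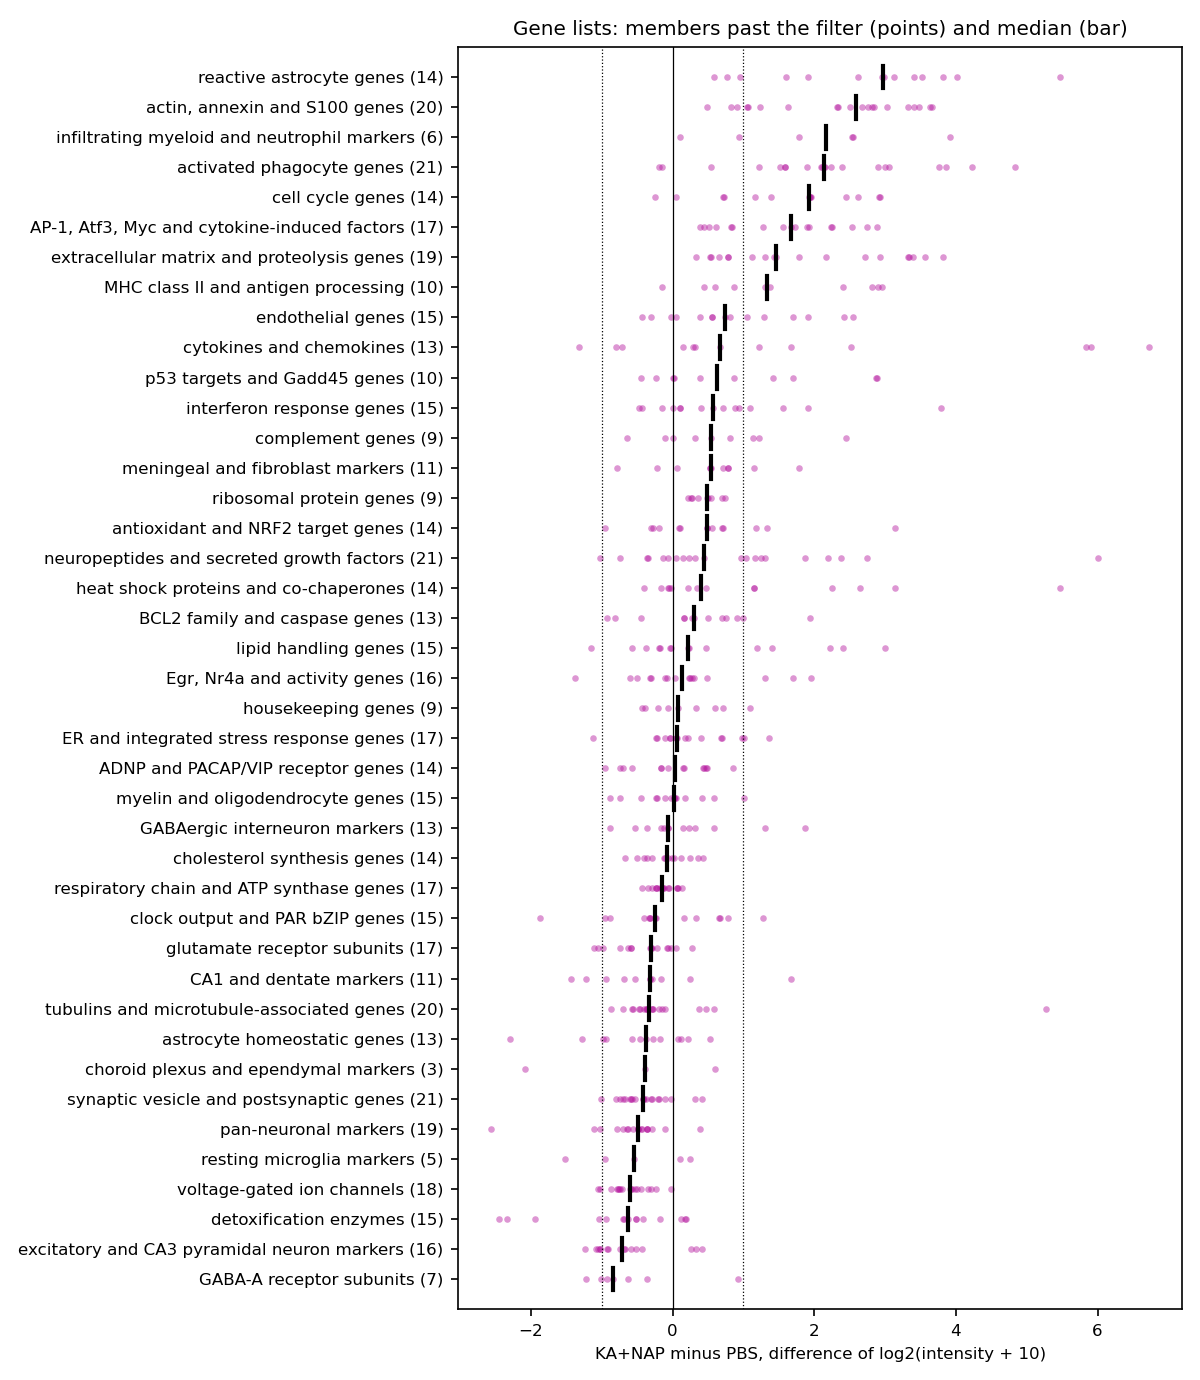
KA+NAP minus PBS, as the difference of log2(intensity + 10), for the members of each list past the filter (points, number in brackets) with the list's median (bar). Lists with 3 or more such members are shown in order of their medians, from 2.97 for reactive astrocyte genes to −0.84 for GABA-A receptor subunits. Dotted lines mark 2-fold.

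Secreted signals of inflammation were few but large. The cytokine and chemokine list had 26 genes on the array and 13 past the filter, 6 of which were at least 2-fold higher. Besides Ccl2, Ccl7 and Spp1 these were the neutrophil attractant Cxcl1 at 2.53 (19 on PBS, 19 on NAP, 94 on KA and 157 on KA+NAP), the macrophage attractant Ccl3 at 1.68, and Il18 at 1.22, of which 0.66 was present in NAP minus PBS. Cxcl12, a chemokine made by resting brain and vessels, was lower at −1.32, from 1711 on PBS and 2644 on NAP to 739 on KA and 680 on KA+NAP. Il1b at 42 and 67, Tnf at 16 and 34, and Il6 at 10 and 27 on PBS and KA+NAP were too dim to pass. Cxcl1 passed the filter through the arrays with KA and so had to differ.

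The highest list median, 2.97, was that of reactive astrocyte genes, where 11 of 14 members were 2-fold higher or more and none was lower. In NAP minus PBS the list's median was 0.58, with 4 members at least 2-fold higher. S100a10, a calcium-binding protein gene, was at 413 on PBS, 504 on NAP, 3335 on KA and 4475 on KA+NAP, a difference of 3.41. The membrane protein gene Emp1 differed by 3.53 and the intermediate filament genes Nes and Vim by 3.13 and 2.61. Gfap, the filament protein of all hippocampal astrocytes, differed by 0.77, from 5744 on PBS to 9776 on KA+NAP. Lcn2, the siderophore-binding lipocalin, was at 101 on PBS, 743 on NAP, 144 on KA and 852 on KA+NAP. Its difference of 2.96 therefore followed the 2 arrays with NAP, unlike the other members named. Of 13 homeostatic astrocyte genes, median −0.38, 2 were at least 2-fold lower, Gjb6 and the bicarbonate transporter Slc4a4 at −1.28. The glycolytic enzyme Aldoc (−0.98) and the folate enzyme Aldh1l1 (−0.94) lay just short of 2-fold. In their brightest probe sets the water channel Aqp4 was at 0.22, the glutamate transporter Slc1a2 at 0.08 and glutamine synthetase Glul at 0.12. Their other probe sets reached 1.03 for Aqp4, −0.56 for Slc1a2 and 1.20 for Glul.

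Structural genes of migrating and reactive cells were higher as well. Of 20 actin-binding, annexin and S100 genes all 20 lay above PBS in their brightest probe sets and 17 were at least 2-fold higher, with a median of 2.59. In NAP minus PBS the median was 0.56, with 4 members at least 2-fold higher. The lowest, Tpm1 at 0.48, ranged from −0.46 to 1.29 over 6 probe sets. Tagln was at 136 on PBS, 308 on NAP, 1048 on KA and 1832 on KA+NAP. Flnc, a filamin that crosslinks actin, differed by 3.63, the actin-capping protein gene Capg by 3.48, and Msn, which ties actin to the membrane, by 3.32. Among genes of the extracellular matrix and its proteases, 13 of 19 were at least 2-fold higher and the median was 1.47. Lox was at 19 on PBS, 30 on NAP, 1458 on KA and 332 on KA+NAP, so its difference of 3.56 was reached at a far lower level than with KA alone. Fbln2, a fibulin of the matrix, was at 159, 168, 1738 and 1774, a difference of 3.40. The metalloproteinase Adamts1 differed by 3.33, the glycoprotein tenascin C (Tnc) by 3.32 and fibronectin (Fn1) by 2.93.

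Among activated phagocyte genes 18 of 21 were at least 2-fold higher and none lower, and the median was 2.14. Their summed intensity over the 23 members on the array was 18141 on PBS, 23367 on NAP, 24266 on KA and 38004 on KA+NAP. Fcgr2b, an Fc receptor, was at 70, 152, 340 and 658 in that order, a difference of 3.06. Cd68, a lysosomal protein of macrophages, was at 24, 69, 74 and 244, a difference of 2.90. Cd14, the co-receptor for endotoxin, differed by 3.0. The KA+NAP array was the highest of the 4 in each of these. Clec7a and Cd68 passed the filter through that array and so had to differ. Resting microglia markers went the other way or stayed near PBS. Among 5 past the filter, the purinergic receptor P2ry12 was the 1 beyond 2-fold, at −1.52 (1071 on PBS, 773 on NAP, 232 on KA and 368 on KA+NAP). Tmem119 was at −0.96 and Gpr34 at −0.55, while the growth factor receptor Csf1r was at 0.11.

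Among MHC class II and antigen processing genes 6 of 10 were at least 2-fold higher, around a median of 1.34. Cd74, the invariant chain that guides class II molecules, was at 108 on PBS, 348 on NAP, 211 on KA and 821 on KA+NAP, a difference of 2.82. RT1-Da, a class II alpha chain, was at 99, 196, 140 and 805, a difference of 2.90, and RT1-Ba, another, was at 47, 141, 57 and 431, a difference of 2.95. RT1-Db1 differed by 2.41, and by 1.29 in NAP minus PBS. In each the KA+NAP array was highest and the KA array lay below the NAP array, and the list's median was 0.25 in KA minus PBS and 0.28 in NAP minus PBS. Rat MHC genes are near copies of each other, so probe sets may share signal. RT1-Db1, at 90 or less on each other array, passed the filter through KA+NAP and so had to differ. The immunoproteasome subunit Psmb8 (1.30) and RT1-DMb (1.37), which loads peptides, were the other members at 2-fold. Of 9 complement genes, median 0.54, 3 were at least 2-fold higher, the C5a receptor C5ar1 at 2.45, C3 at 1.22 and the inhibitor Serping1 at 1.14. The median of the list was 0.96 in NAP minus PBS and −0.20 in KA+NAP minus NAP, and C3 and Serping1 stood higher on NAP, at 359 and 611, than on KA+NAP, at 283 and 529. C5ar1 was at 1.10 in NAP minus PBS. The interferon response list had 4 of 15 members at least 2-fold higher and a median of 0.58. The 4 were Ifitm1, Ifitm2 (1.91), Ifitm3 (1.55) and Irf9 (1.09). Ifitm2 was at 1.12 in NAP minus PBS. Mx1 and Irf7, induced by type I interferon, were at −0.43 and −0.47.

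Some markers of blood-borne cells and of vessels were higher beside these groups, and their part in the result was not tested. Of 13 infiltrating myeloid and neutrophil markers 6 passed the filter and 4 were at least 2-fold higher, namely S100a9, S100a8 (2.54), Ly6c (2.54) and Mmp9 (1.79). The summed intensity of the 13 was 501 on PBS, 807 on NAP, 950 on KA and 1458 on KA+NAP. S100a9, S100a8 and Ly6c passed the filter through KA+NAP, where they were highest, and so had to differ. The neutrophil granule genes Mmp8 and Camp and the neutrophil receptor Cxcr2 were at 16 or less on every array. Of 13 lymphocyte markers 1 passed, Lck at 0.15, and the list summed to between 159 and 298. The T cell genes Cd3d and Cd3g were at 21 or less on every array, whereas Cd8a went from 1 on PBS, 2 on NAP and 15 on KA to 72 on KA+NAP. Of 15 endothelial genes, median 0.75, 6 were at least 2-fold higher, with the largest differences in Ly6c, the VEGF receptor Kdr (2.42), von Willebrand factor (Vwf, 1.91) and the adhesion molecule Icam1 (1.69), while the barrier genes Cldn5 and Ocln were at 0.05 and −0.02. Vwf was at 1.24 in NAP minus PBS. Icam1 passed the filter through KA+NAP, as Ly6c did. Meningeal and fibroblast markers had a median of 0.54 with Mgp (1.79) and Igfbp2 (1.15) at least 2-fold higher among 11. In NAP minus PBS these 2 were at 1.09 and 0.85, and the list's median turned to −0.74 in KA+NAP minus NAP. Their summed intensity was 3063 on PBS, 6387 on NAP, 2981 on KA and 3749 on KA+NAP. Ptgds, a marker of the meninges, was at −0.79 and Col1a2 at 0.78, with the other probe set of Col1a2 at 1.33. Choroid plexus markers other than Ttr, Enpp2 and Foxj1 did not pass the filter. Enpp2 was at −0.40 and the ciliary factor Foxj1 at 0.60. The plasma and red cell list held Hbb and Alb, already given.

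Most proliferation genes past the filter were higher. Among 14 cell cycle genes past the filter 10 were at least 2-fold higher, around a median of 1.93. Mki67, the marker of dividing cells, was at 24 on PBS, 57 on NAP, 81 on KA and 250 on KA+NAP, a difference of 2.93. Top2a, a topoisomerase of replicating DNA, was at 31, 70, 107 and 298, a difference of 2.91. The mitotic kinase Cdk1 differed by 2.62 and the replicative helicase subunit Mcm5 by 2.45. The KA+NAP array was the highest of the 4 in all 4 genes. Of 21 members on the array, 7 were below the filter. Mki67, Top2a and Cdk1 were at 107 or less on each other array, passed the filter through KA+NAP and so had to differ.

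Inducible transcription factors separated by family. Of 17 AP-1, Atf3, Myc and cytokine-induced factor genes 11 were at least 2-fold higher and all lay above PBS, with a median of 1.67. Fos was at 295 on PBS, 379 on NAP, 1477 on KA and 1760 on KA+NAP, a difference of 2.54. Maff differed by 2.89, the stress factor Atf3 by 2.75 and the AP-1 subunit Fosl1 by 2.25. Their KA and KA+NAP levels lay close together, as 219 and 190 for Maff and 161 and 178 for Atf3. Atf3 and Fosl1, at 25 or less on PBS and NAP, passed the filter through the arrays with KA and so had to differ. Of 16 Egr, Nr4a and activity genes 3 were at least 2-fold higher, Ier2 (1.96), Gadd45b (1.70) and the ERK phosphatase Dusp6 (1.31), and 1 was lower, the nuclear receptor Nr4a3 at −1.37. Nr4a3 was at 1781 on PBS, 1549 on NAP, 528 on KA and 683 on KA+NAP. Dusp6, whose probe sets disagree, stood highest on the KA+NAP array in its brightest, at 964 against 383 on PBS, 332 on NAP and 305 on KA. Egr1 (−0.30), Arc (−0.60) and Nr4a1 (−0.11) did not reach 2-fold.

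Promoters were examined because AP-1 subunit genes were among those high together. RefSeq promoter windows of the GRCr8 build, from 250 bases before to 50 after a gene's first listed start, were found for 37 of the 50 highest and 39 of the 50 lowest genes. The AP-1 motif, searched as TGANTCA on both strands, was present in 5 of the 37 (13.5%) and in 2 of the 39 (5.13%), against 4.40% of the 7960 windows of all genes compared and 7.33% of all 27457 in the table. The narrower form TGACTCA, looked at afterwards and a subset of the first, was present in 3 (8.11%), 1 (2.56%), 3.0% and 4.53%. The cyclic AMP element (TGACGTCA), the heat shock element and an NF-kB motif were in none of the highest or lowest windows. Over all genes compared they were in only 3.47%, 0.452% and 0.101%, so their absence from 37 and 39 windows says little. The E-box (CACGTG) was in 2 (5.41%) and 1 (2.56%), against 9.76% of the genes compared. The D-box (TTANGTAA), bound by Hlf and its relatives, was in 1 (2.70%) and 2 (5.13%), against 1.09%. These counts are small and a match is a description of letters, not a binding site. The stretches below belong to the 4 of those 5 genes with AP-1 letters, in capitals, upstream of the start. In the other gene, Hbb, they lie 21 bases past it.
Ccl7, chr10:67513992-67514058, plus strand: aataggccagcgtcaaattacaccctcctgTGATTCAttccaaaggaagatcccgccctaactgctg
Gpnmb, chr4:79341011-79341077, plus strand: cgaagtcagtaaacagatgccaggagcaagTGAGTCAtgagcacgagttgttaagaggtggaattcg
Cybb, chrX:16065195-16065261, minus strand: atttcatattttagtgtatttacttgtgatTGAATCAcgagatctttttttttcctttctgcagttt
Emp1, chr4:169943988-169944054, plus strand: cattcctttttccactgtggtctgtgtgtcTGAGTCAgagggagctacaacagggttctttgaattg
In Gpnmb and Emp1 the letters are the narrower form, TGAGTCA being the reverse complement of TGACTCA, and begin at position −87 and −212 from the start. In Ccl7 and Cybb they are the wider form and begin at −73 and −166. Emp1 holds a second match of the wider form at −88.

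Stress and survival genes gave a few large differences in lists that mostly lay near PBS. Of 14 heat shock proteins and co-chaperones, median 0.41, 6 were at least 2-fold higher. Hmox1, the haem-degrading enzyme, was at 56 on PBS, 77 on NAP, 404 on KA and 571 on KA+NAP, a difference of 3.14. Hspb8 differed by 2.65 and the inducible chaperone Hspa1a by 2.26, and the constitutive Hsp90ab1 (−0.06) and Hsph1 (−0.04) stayed near PBS. Antioxidant genes had a median of 0.49, with the metallothionein Mt2A (1.34) and the peroxidase Gpx1 (1.18) at least 2-fold higher beside Hmox1 among 14, and the peroxiredoxin Prdx6 at −0.96. Of 10 p53 targets and Gadd45 genes 4 were at least 2-fold higher, Gadd45g (2.89), Gadd45a (2.87), Gadd45b and the nuclease Aen (1.42). The p53 targets Cdkn1a (0.86), Mdm2 (0.38) and Bbc3 (−0.44) did not reach 2-fold. Of 13 BCL2 family and caspase genes Bcl2a1 (1.94) and Mcl1 (1.0), both anti-apoptotic, were at least 2-fold higher, and the mitophagy gene Bnip3 was at −0.81. ER and integrated stress genes had a median of 0.07 with Creld2 (1.36) and Sdf2l1 (1.0) higher and the mTOR inhibitor Ddit4 lower at −1.12 among 17. Sdf2l1 was at 0.55 in NAP minus PBS.

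Peptide and growth factor genes ranged from far above vehicle to below it. Of 21 past the filter 9 were at least 2-fold higher and 1 lower, with a median of 0.45. Besides Trh, the EGF-receptor ligand Hbegf was at 55 on PBS, 60 on NAP, 455 on KA and 427 on KA+NAP, a difference of 2.75. The peptide gene Gal was at 89, 70, 410 and 504, a difference of 2.38. Both kept the level seen with KA alone. Inhba, the activin subunit, was at 160, 138, 1534 and 767, a difference of 2.19, and Npy at 749, 838, 4142 and 1868, a difference of 1.31, each between the vehicle and the KA level. Penk, the enkephalin precursor, was at 341, 358, 1635 and 429, a difference of 0.32. Bdnf was at 655, 642, 1412 and 594, a difference of −0.14. Pdyn, the dynorphin precursor, was at 1146, 1858, 2330 and 561, a difference of −1.02, the lowest of its 4 arrays. Penk and Bdnf were chosen here after their values were seen.

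**Figure D5:**
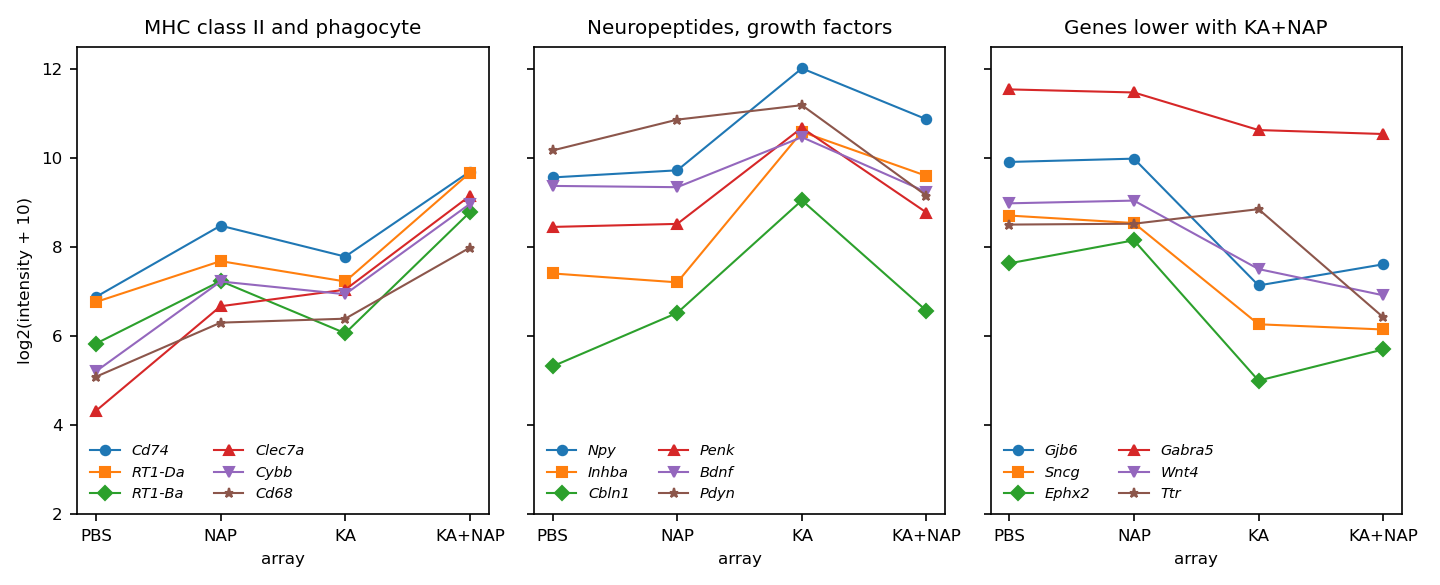
Levels as log2(intensity + 10) of 18 genes on the 4 arrays, 1 value an array, with lines only joining values of the same gene. The MHC class II and phagocyte genes shown are highest on KA+NAP, and the peptide and growth factor genes shown are highest on KA. Trh and Gal of the same list, not shown, are higher on KA+NAP than on KA. All but Ttr of the lower genes lie lower on both arrays with KA than on PBS and NAP.

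Neuronal genes lay below PBS by small amounts and in most members. Excitatory and CA3 pyramidal neuron markers had a median of −0.71, with 13 of 16 below PBS and 5 at least 2-fold lower. Kcnq5, a potassium channel, was at 1994 on PBS, 1907 on NAP, 1289 on KA and 845 on KA+NAP, a difference of −1.23. Grik4, a kainate receptor subunit of CA3, was at 407, 325, 365 and 191, a difference of −1.05. Cpne4 differed by −1.09, and Neurod1 and Elavl4 each by −1.02. Kcnq5, Grik4 and Cpne4 were lowest on KA+NAP, and Slc17a7, the vesicular glutamate transporter, was at −0.68. Pan-neuronal markers had a median of −0.48 with 18 of 19 below PBS and 3 at least 2-fold lower, Sncg, the neurofilament gene Nefm at −1.11 and Elavl4. Rbfox3 (NeuN) and Snap25 were at −0.48 and −0.36, and Gap43, a growth cone protein, at 0.39. CA1 and dentate markers had a median of −0.32, which turned to 0.23 in KA+NAP minus NAP. Ccn3, at 330, 459, 50 and 116, was at −1.43, and Gabrd at −1.23, while Rprm, at 54, 89, 975 and 194, was at 1.67. The CA1 genes Pou3f1 (0.25), Mpped1 (−0.32) and Fibcd1 (−0.68) stayed within 2-fold of PBS. GABAergic interneuron markers had a median of −0.07, and of 0.15 in KA+NAP minus NAP. Npy and Tac1 (1.87, and 1.09 in NAP minus PBS) were at least 2-fold higher among 13, Gad1 was at −0.16 and the calcium-binding protein Pvalb at −0.88.

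Receptor, channel and synaptic genes were lower with few at 2-fold. The lowest list median, −0.84, was that of GABA-A receptor subunits, where 2 of 7 reached 2-fold. Gabrd, the extrasynaptic delta subunit, was at 224 on PBS, 302 on NAP, 119 on KA and 90 on KA+NAP. Gabra5, abundant in hippocampus, was at 2982, 2842, 1578 and 1483, a difference of −1.0. Gabrb1 was at 2279, 2446, 1906 and 1190, a difference of −0.93, whereas Gabrg1 lay above PBS at 0.93. The list's median was −0.04 in KA minus PBS and −0.93 in KA+NAP minus NAP. Glutamate receptor subunits had a median of −0.31 with the metabotropic receptor Grm2 (−1.11) and Grik4 at least 2-fold lower among 17, and Grm3 and Gria2 at −0.97 and −0.74. Voltage-gated ion channels had a median of −0.60 and all 18 lay below PBS, 2 of them at least 2-fold, Kcnip4 (−1.05) and Kcna2 (−1.03). Synaptic genes had a median of −0.41 with 19 of 21 below PBS and the synapsin gene Syn2 at −1.02. Tubulin and microtubule genes had a median of −0.33 with 16 of 20 below PBS, Tubb4a at −0.87 and Tuba4a at −0.70, and Tubb6 alone at 2-fold. Of 14 ADNP and PACAP/VIP receptor genes none reached 2-fold. Adnp itself was at 1386 on PBS, 1386 on NAP, 1566 on KA and 1548 on KA+NAP, a difference of 0.16. The PACAP receptor gene Adcyap1r1 was at −0.95 and its ligand Adcyap1 at −0.75, and the end-binding protein genes Mapre1 and Mapre3 were at 0.47 and −0.57.

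Metabolic genes were lower where they detoxify and near PBS where they respire. Detoxification enzymes had a median of −0.63, with 12 of 15 below PBS and 4 at least 2-fold lower, Nat8f5, Sult1a1, Ephx2 and the retinal dehydrogenase Aldh1a1 (−1.04). Ephx2 was at 189 on PBS, 275 on NAP, 22 on KA and 42 on KA+NAP. Respiratory chain and ATP synthase genes had a median of −0.14 over 17, and cholesterol synthesis genes −0.08 over 14, none at 2-fold in either. The latter were at 0.16 in KA+NAP minus NAP. The 9 ribosomal protein genes all lay above PBS, from 0.22 to 0.75. Myelin and oligodendrocyte genes had a median of 0.02, with the lineage factor Sox10 at 1.01 and Mal at −0.88 among 15. Housekeeping genes had a median of 0.08, with Gusb, a lysosomal enzyme, at 1.10 among 9, and at 0.78 in NAP minus PBS.

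Some genes set the KA+NAP array apart from the other 3. It was at least 2-fold above each other array for 77 genes (0.811%), against 22 for KA, 9 for NAP and 5 (0.0527%) for PBS. The 8 that stood out by most were Clec7a, RT1-Da, Mnda, Cd300c2, Capg, Cybb, Slpi and Cd68. Mnda, a myeloid nuclear protein gene, was at 8 on PBS, 15 on NAP, 41 on KA and 191 on KA+NAP. Clec7a, Slpi, Mnda and Cd68 were at 122 or less on each other array, passed the filter through KA+NAP and so had to differ. The KA+NAP array was at least 2-fold below each other array for 9 genes (0.0948%), among them Ttr, Dpyd (−1.37), Frem3, Arhgap26 (−1.03), Fam135a (−1.22), Pdyn, Dusp9 (−1.63) and Nt5dc1 (−1.25). The probe sets of Nt5dc1 disagreed in direction, at −1.25 and 2.04, with a median of 0.39. In the median of its probe sets Fam135a was at −0.49. The PBS array was at least 2-fold below each other array for 52 genes (0.548%), led by Hbb, Clec7a, Abca1, Gpnmb, Hspb1 and Ifitm1. Abca1, the cholesterol exporter, was at 110 on PBS, 629 on NAP, 627 on KA and 550 on KA+NAP, so that its difference of 2.22 was −0.19 with NAP in place of PBS. The 5 genes with PBS at the top were Polr3k (−1.67), RT1-T24-3 (−1.40), Alg9 (−1.10), Exph5 and Inhbb (−1.69). In NAP minus PBS they were at −1.14, −1.12, −1.21, −1.02 and −1.0.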

How the data were processed

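RNA of 4 samples was labelled from 500 ng of total RNA through 2 cycles of amplification for Affymetrix arrays, per the labels' protocols. The deposited values are linear signal intensities per probe set, computed by the authors with MAS5, per the submitters' processing notes, and their 2% trimmed mean was 250.1 on each array. MAS5 settings and a genome build were not given in the sources used here. Of 31099 probe sets, 57 were controls, 20826 had 1 gene symbol in the platform annotation, 436 had several and 9780 were not listed. Symbols were updated through the Entrez identifier (20758 found in the GRCr8 gene table). Computed here were log2(intensity + 10) and differences between arrays, in Python 3.11.15 with pandas 2.3.3. A ratio of exactly 2 counted as 2-fold. The functions were tested on simulated data. With 1 array per group, no test was made, and intensities of different genes are not compared.

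The genes, the 43 lists and the comparisons were chosen with earlier results of these data known. The rule for named genes took the 20 highest and 20 lowest differences, the 4 largest of a list, the 8 for which KA+NAP lay farthest above or below each other array (6 for PBS), those opposed in KA minus NAP, those nearest the filter, and Adnp. Other list members named, for their function, were picked with their values seen. Alternatives were pseudocounts of 1 and 50, other filters, the median of a gene's probe sets, quantile normalization, median centring, and NAP in place of PBS. Promoter windows came from RefSeq, taking the first listed start of genes with several.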

Additional observations from a re-analysis of the deposited data

Results flagged for a closer look

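In 8 genes KA+NAP minus PBS and KA minus NAP, which share no array, were at least 2-fold apart in opposite directions, so that the arrays with NAP lay above those without it. The difference between the effects was not tested, since each is a difference of single arrays. Hbb was at 6.70 in KA+NAP minus PBS and −2.88 in KA minus NAP, and Hba-a3 at 2.70 and −1.52. The lipocalin Lcn2 was at 2.96 and −2.29, and the class II gene RT1-Ba at 2.95 and −1.17. Mpeg1, a pore-forming protein of macrophages, was at 1.90 and −1.12, with intensities of 488 on PBS, 471 on KA, 1843 on KA+NAP and 1036 on NAP. The platelet chemokine Pf4 was at 1.49 and −1.29, the complement inhibitor Serping1 at 1.14 and −1.09, and the amino acid transporter Slc6a20a at 1.10 and −1.0. The other probe set of Slc6a20a was at 0.28 in KA+NAP minus PBS, short of 2-fold. Hba-a3 and Pf4 would not have passed the filter without their higher KA+NAP values.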

How the results depend on the processing

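The counts moved most with the filter and the pseudocount, which decide how many dim genes can reach 2-fold. Without a filter 1127 genes were at least 2-fold higher and 439 lower in KA+NAP minus PBS, and the stricter filter, at the 75th percentile, left 258 and 94. With a pseudocount of 50 the lower count was 109. Genes higher in both differences without a shared array numbered 130 with a pseudocount of 50 and 102 with the stricter filter, and those lower in both 50 and 41. The KA+NAP array was at least 2-fold above each other array for 39 genes with a pseudocount of 50, 140 without a filter and 13 with the stricter filter, and below each for 1, 30 and 3. The other alternatives left these counts within 1.5 times, including quantile normalization (614 higher, 256 lower). With NAP in place of PBS, 6 of the named genes that were at least 2-fold from PBS changed sign, Abca1 (−0.19), Alg9 (0.12), C3 (−0.33), Pf4 (−0.60), Serping1 (−0.20) and Slc6a20a (−0.74), as did C1s (−0.29) and Col1a2 (−0.94), which were within 2-fold. Of 41 list medians 6 moved by more than 1.5-fold. Among them, reactive astrocyte genes were then at 2.12 and actin-binding, annexin and S100 genes at 1.89. Activated phagocyte genes were at 1.52, cell cycle genes at 1.34 and meningeal markers at −0.74. The medians of complement genes (−0.20), CA1 and dentate markers (0.23), interneuron markers (0.15), cholesterol synthesis genes (0.16), myelin genes (−0.01) and the 2 red cell and plasma genes (−1.48) also turned sign. In the median of their probe sets Nt5dc1 was at 0.39 and Fam135a at −0.49. No paired analysis was possible because each group had 1 array. Signal over background is unknown without detection calls, and the number of arrays limits every value.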

Other observations

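Of 15 lipid handling genes, 5 were at least 2-fold higher in KA+NAP minus PBS. The lipid droplet protein gene Plin2 was at 75 on PBS, 106 on NAP, 569 on KA and 673 on KA+NAP, a difference of 3.01. Ch25h, which makes 25-hydroxycholesterol, differed by 2.40, Abca1 by 2.22 (2.41 in NAP minus PBS), Apod by 1.41 and Fabp5 by 1.19. The lipoprotein lipase gene Lpl was lower at −1.16, from 1493 on PBS and 1652 on NAP to 902 on KA and 664 on KA+NAP. Of 15 clock output genes, Hlf was lower and its repressor-type relative Nfil3 higher at 1.28, from 53 on PBS and 67 on NAP to 169 on KA and 143 on KA+NAP. The other PAR bZIP factors Tef and Dbp were at −0.95 and −0.88, and the core clock genes Bmal1 and Clock at −0.31 and 0.67, with the other probe set of Clock at −0.34.

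Among the 3359 probe sets past the filter that had no single gene name, KA+NAP was at least 2-fold above PBS for 179 and below it for 119. Among the 9489 named genes these counts were 704 (7.42%) and 202 (2.13%), so the unnamed probe sets leaned less to the higher side. The unnamed probe sets were not analysed further.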
